A study of Homo sapiens with 12 samples.

Results

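Gene expression was compared between PANC-1 cells kept for 24 h with 30 nM chaetocin (3 libraries) and PANC-1 cells kept for 24 h with the vehicle DMSO (3 libraries). These 6 libraries were chosen by their treatment label from 12 RNA sequencing libraries in all. The other 6, with 90 nM of the Aurora A kinase inhibitor MLN8237 alone (3 libraries) or with both compounds at these doses (3 libraries), entered the shared estimate of the spread and served where libraries outside the comparison were needed. PANC-1 is an established line from a human pancreatic carcinoma, and both groups are this one line, at a passage below 30 per the labels. Nothing in the labels ties the 3 libraries of a group to separate dishes, and p-values here reflect only the spread between libraries, which may be technical. No engineered allele or transgene is named for any group.

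Chaetocin is a fungal metabolite with a disulfide-bridged diketopiperazine core. It is known as an inhibitor of the histone H3 lysine 9 methyltransferase SUV39H1, whose mark is a feature of silenced chromatin, and as a competitive substrate and inhibitor of thioredoxin reductase, which keeps thioredoxin reduced. Cells exposed to thiol-reactive compounds are known to raise NRF2 targets (antioxidant enzymes), heat shock genes (chaperones) and immediate early genes (transcription factors of the FOS, EGR and NR4A families), and those 3 lists were kept apart here so that genes outside them could be described.

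Chaetocin changed the RNA level of 24.5% of the genes that could be tested, and the direction went with how strongly a gene was expressed without the compound. Among genes at a level of 100 CPM (a gene's count relative to its library's scaled total) or more in vehicle, falls outnumbered rises, 492 to 107 of 2414. Between 0.1 and 1 CPM rises outnumbered falls, 659 to 120 of 5565. Outside the 3 stress lists, genes with large rises included HKDC1 (a hexokinase family member), LUCAT1 (a long non-coding RNA), COL17A1 (a hemidesmosome collagen) and PLB1 (a phospholipase). Genes with large falls included the matrix proteins MXRA5 and COL11A1, the chemokines CCL2 and CX3CL1, the protease PLAU, the junction protein CLDN1 and the Wnt ligand WNT10A.

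The vehicle libraries held 49439795, 56370345 and 57539126 counted reads, and the chaetocin libraries 56213168, 63747510 and 57284302. The table lists 57773 genes. Of these, 16155 were at 0 in all 12 libraries, and 22831 passed a filter on low counts and were tested. A change was called at an adjusted p under 0.05 (edgeR quasi-likelihood test, Benjamini-Hochberg over the 22831 genes). By this rule 5591 genes (24.5% of those tested) differed, 2874 higher with chaetocin (12.6%) and 2717 lower (11.9%). The counts of calls depended on single libraries: without vehicle replicate 2 there were 3704 calls in all and 1885 higher, and without chaetocin replicate 2 there were 1772 lower. The first principal component, 64.4% of the variance over the 6 libraries, separated the groups. The second, 12.3%, held chaetocin replicate 3 (-38.2) apart from chaetocin replicates 1 and 2 (32.6 and 12.7). For 48% of the genes tested the 3 libraries of one group all lay above the 3 of the other (24.2% higher with chaetocin, 23.9% lower), which is the background for each statement below that groups did not overlap. Levels are given as CPM, a gene's count relative to its library's total, scaled by edgeR's TMM method. CPM values are relative within a library, and in bulk samples fewer cells of a type and less RNA per cell cannot be told apart.

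The size and direction of change followed the level in vehicle. Among 2414 genes at 100 CPM or more in vehicle, 107 rose (4.43%) and 492 fell (20.4%). Between 10 and 100 CPM, 889 of 8352 rose (10.6%) and 1486 fell (17.8%). Between 1 and 10 CPM the counts were nearly even, with 621 up and 619 down of 5303. Between 0.1 and 1 CPM, 659 of 5565 rose (11.8%) and 120 fell (2.16%). The balance therefore shifted from falls to rises as the starting level dropped. Among called genes, 17.9% were higher at 100 CPM or more and 84.6% between 0.1 and 1 CPM. Below 0.1 CPM a gene can pass the filter only through libraries in which it is present, so the 468 of 1058 genes called higher there, the 130 of 139 called higher from 0 CPM, and their lack of falls are descriptions that the filter largely fixes. The filter touches the lower end of the range from 0.1 to 1 CPM in the same way. Without chaetocin replicate 1 or vehicle replicate 2, the percentage higher at 100 CPM or more was 14.7 and 14.8.

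Changes were also smaller where the gene was more abundant. The median log2 fold change of genes called higher was 3.06 under 0.1 CPM, 1.58 between 0.1 and 1 CPM, 0.84 between 1 and 10 CPM, 0.45 between 10 and 100 CPM and 0.38 from 100 CPM. That of genes called lower was -1.52, -0.84, -0.55 and -0.51 over the last 4 of these ranges. The smallest change that could be called also shrank with the level, since the median standard error of called genes went from 0.714 for the rises under 0.1 CPM to 0.0895 for the rises from 100 CPM. Abundant genes that changed by more than 2-fold were thus few, and 8 of them were higher and 42 lower.

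**Figure D1:**
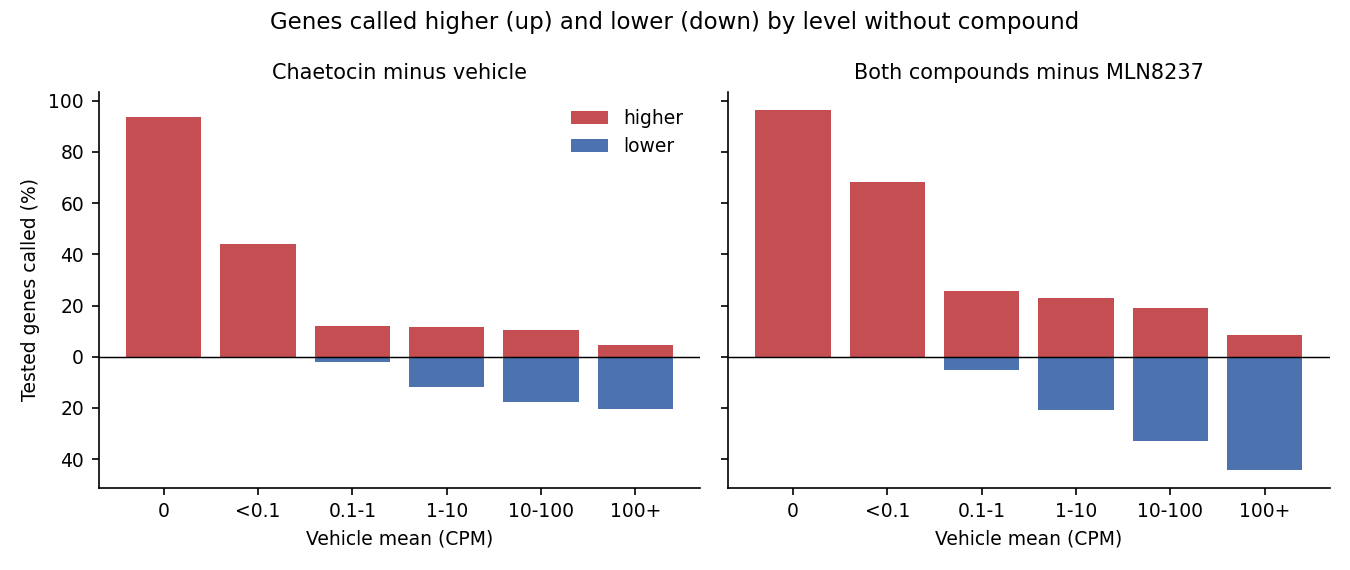
Genes called higher or lower with chaetocin than with vehicle, as a percentage of the genes tested (y axis) in each range of mean vehicle level in CPM (x axis). Between 0.1 and 1 CPM 11.8% of genes rose and 2.16% fell, and at 100 CPM or more 4.43% rose and 20.4% fell. The bars under 0.1 CPM are largely fixed by the filter on low counts.

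The shift was also measured without a filter and with levels set by libraries outside the comparison. All 57773 genes of the table were sorted by their level in the 3 MLN8237 libraries, and their CPM were summed in each vehicle and chaetocin library. The 25039 genes at 0 CPM with MLN8237 summed to 35.2, 40.3 and 56.0 CPM in vehicle and to 112, 131 and 143 CPM with chaetocin, a ratio of 2.94. Of these genes, 951, 1234 and 1644 had a count in the vehicle libraries, and 2358, 2879 and 2863 in the chaetocin libraries. The 10515 genes under 0.1 CPM summed to 305, 329 and 401 CPM in vehicle and 589, 656 and 699 CPM with chaetocin (ratio 1.88). The 2448 genes at 100 CPM or more summed to 681800, 669200 and 670800 CPM in vehicle and 622000, 621800 and 643700 CPM with chaetocin (ratio 0.934). On the TMM scale, no vehicle library overlapped a chaetocin library in any of the 6 ranges of level. The TMM factors were 0.9651 to 0.9728 in vehicle and 1.0084 to 1.0299 with chaetocin. The scaled sums over all genes tested were thus unequal, 1031000 CPM in vehicle and 979300 CPM with chaetocin. The ratios in the ranges from 10 CPM, 0.973 and 0.934, therefore depend on the scaling. The exact two-sided permutation test gave p = 0.1 for each range, the smallest value that 3 libraries against 3 allow. The total that the near-silent genes reached was still small, since those at 0 CPM with MLN8237 summed to 129 ± 15.4 CPM with chaetocin (SD, n = 3). The number of genes with at least 1 count was 27987 to 29771 in vehicle and 30980 to 31964 with chaetocin, at library totals whose ranges overlapped.

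**Figure D2:**
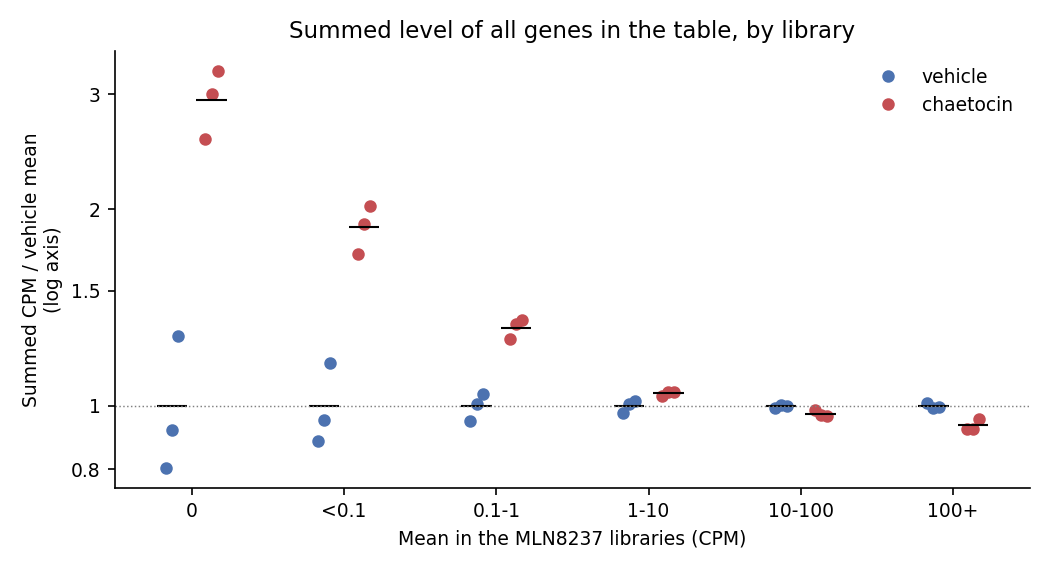
Summed CPM of each vehicle and chaetocin library (points) relative to the vehicle mean (y axis, log scale), for genes sorted by their level in the MLN8237 libraries (x axis). The chaetocin libraries lie above the vehicle libraries for genes up to 10 CPM and under them from 10 CPM, with ratios of the means from 2.94 at 0 CPM to 0.934 at 100 CPM or more. Sums are on the TMM scale, on which the ratios from 10 CPM depend.

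Libraries that share nothing with the 6 compared gave the same direction for most of these genes. The contrast of both compounds against MLN8237 alone also adds chaetocin, to cells that carry MLN8237 in both groups. It called 5310 genes higher (23.3% of those tested) and 5177 lower (22.7%). Of the 2874 genes higher with chaetocin alone, 2458 were called higher there too, which is 85.5% of the first list and 46.3% of the second. Of the 2717 lower genes, 2297 were called lower there, 84.5% of the first list and 44.4% of the second. A single gene was called in opposite directions. MLN8237 alone against vehicle changed 1 gene. The edgeR test of whether the chaetocin change differed with MLN8237 called 0 of 22831 genes, with 3108 at an unadjusted p under 0.05. These are a larger share of the genes than 0.05, so the lack of calls does not show that the changes were equal. From 100 CPM in vehicle, 44.2% of genes fell for both compounds against MLN8237 and 20.4% for chaetocin against vehicle. Rises there were 8.66% and 4.43%. All 12 libraries share one fit, so the estimate of the spread is common to both contrasts.

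Among the genes that had no count in any vehicle library, the clearest signal was in VWF, the clotting protein von Willebrand factor. VWF was at 1.18, 1.49 and 1.54 CPM in the chaetocin libraries, at least 74.2-fold above a floor of 3 counts over the vehicle group. The cancer-testis antigen SSX1 was at 1.42, 1.57 and 0.935 CPM and the anoctamin ANO2 at 0.885, 0.991 and 1.09 CPM. All 3 chaetocin libraries held each of these genes at levels near or above 1 CPM, with no vehicle count. A further one, the antisense transcript RP11-818F20.5, lies inside TXNRD1 and was at 0.677, 1.01 and 1.23 CPM. TXNRD1 was at 739.7 ± 42.8 CPM in vehicle, where RP11-818F20.5 had no count, and rose 2.41-fold with chaetocin. Of the 139 tested genes at 0 in vehicle, 73 were protein-coding, 33 long non-coding, 13 antisense and 9 pseudogenes. These genes passed the filter only through the groups in which they are present, so neither their number nor their direction is a result.

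Other low-level genes had counts in both groups. COL17A1, a transmembrane collagen of hemidesmosomes (chromosome 10, 105791044 to 105845760 in hg19), was at 0.21, 0.255 and 0.268 CPM in vehicle and 5.85, 6.87 and 7.66 CPM with chaetocin. The log2 fold change was 4.78 ± 0.293 (SE) at an adjusted p of 1.08e-06, and the lowest chaetocin library lay far above the highest vehicle library. PAX5, a transcription factor of B cells, rose from 0.738 ± 0.115 to 8.26 ± 0.49 CPM (SD, n = 3, here and for each mean below; log2 fold change 3.47 ± 0.239, SE here and below). The potassium channel subunit KCNF1 rose from 0.44 ± 0.0878 to 4.86 ± 0.914 CPM and LAMA2, a laminin chain of basement membranes, from 0.376 ± 0.0859 to 3.92 ± 0.514 CPM. By class, 324 of 1580 long non-coding RNAs rose (20.5%) and 66 fell (4.18%), against 12.6% and 11.9% over all genes tested. Of 2362 pseudogenes 203 rose (8.59%) and 47 fell (1.99%), and of 2443 antisense RNAs 250 rose (10.2%) and 162 fell (6.63%), both shares under those over all genes. Of 14812 protein-coding genes 1972 rose (13.3%) and 2351 fell (15.9%). By coding length as deposited, the shortest 20% had 427 rises and 161 falls of 4569 and the longest 20% had 535 rises and 767 falls of 4566. Class, length and level move together in this table, and their separate parts were not tested.

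Among genes outside the 3 stress lists with a mean of at least 5 CPM over the 6 libraries, HKDC1 rose most. It encodes a protein of the hexokinase family, which phosphorylates glucose, and lies on chromosome 10, 70980059 to 71027315 (hg19). HKDC1 was at 0.65, 0.711 and 1.4 CPM in vehicle and 11.9, 14 and 16.2 CPM with chaetocin, a log2 fold change of 3.92 ± 0.28 with an adjusted p of 2.14e-06. Every chaetocin library was several times above every vehicle library. The antisense transcript RP11-227H15.4, which overlaps HKDC1, rose too, from 0.0621 ± 0.0175 to 2.19 ± 0.298 CPM, and its reads cannot be told apart from those of HKDC1. PLB1, a membrane phospholipase that removes both fatty acids from phospholipids, went from 1.28, 0.821 and 0.948 CPM to 9.23, 10.9 and 13 CPM (log2 fold change 3.45 ± 0.25, adjusted p 2.2e-06). LUCAT1, a long non-coding RNA, went from 1.45, 0.638 and 1.16 CPM to 12.4, 15.2 and 18.2 CPM (log2 fold change 3.83 ± 0.333, adjusted p 9.17e-06). In both, the lowest chaetocin library was several CPM above the highest vehicle library. LUCAT1 overlaps RP11-213H15.4 in the table, which rose by 3.81 ± 0.352, so the 2 may share reads.

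The rest of that group of 12 included secreted, surface and intracellular proteins. HTRA3, a secreted serine protease, was at 2.54, 2.1 and 2.42 CPM in vehicle and 13.5, 16.6 and 18.2 CPM with chaetocin (log2 fold change 2.77 ± 0.295). STC1, a secreted glycoprotein hormone of calcium and phosphate balance, was at 1.7, 1.26 and 2.04 CPM and then 9.43, 9.9 and 14.3 CPM. F2RL2, the protease-activated receptor PAR3, was at 2.33, 2.39 and 3.56 CPM and then 15.9, 16.5 and 16 CPM (log2 fold change 2.54 ± 0.174, adjusted p 2.14e-06). The 3 chaetocin libraries were close together for F2RL2 and spread more for STC1, and neither gene's groups overlapped. F2RL2 lies within IQGAP2, which was at 0.558 ± 0.277 CPM in vehicle and 1.57 ± 0.142 CPM with chaetocin. FCGBP, a mucin-like secreted protein, rose from 3.76 ± 0.938 to 18.7 ± 3.31 CPM. Inside the cell, DHRS2, a short-chain dehydrogenase that reduces carbonyl compounds, rose from 1.35 ± 0.184 to 12.1 ± 2.58 CPM (log2 fold change 3.16 ± 0.256). SYNE1, which ties the nuclear envelope to the cytoskeleton, rose from 3.4 ± 0.82 to 18.6 ± 1.42 CPM, the transmembrane protein gene TMC5 from 2.46 ± 0.464 to 12.6 ± 1.7 CPM, the transcription factor gene SP6 from 1.88 ± 0.335 to 8.77 ± 0.26 CPM and the myosin heavy chain gene MYH15 from 7.99 ± 1.54 to 36.6 ± 5.38 CPM. These 12 genes span log2 fold changes of 2.19 to 3.92.

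Sequence around the start site was read for LUCAT1, PLB1 and F2RL2 because each holds a match to the AP-1 motif, the site that FOS and JUN dimers are known to bind, and for PERP because it holds one and fell. The 250 bases before the start are shown (RefSeq, GRCh38.p14, 5′ to 3′ on the gene's strand), and capitals mark the match. They are LUCAT1 (chr5:91314403-91314652, minus strand), PLB1 (chr2:28495810-28496059, plus strand), F2RL2 (chr5:76623404-76623653, minus strand) and PERP (chr6:138107420-138107669, minus strand).
LUCAT1: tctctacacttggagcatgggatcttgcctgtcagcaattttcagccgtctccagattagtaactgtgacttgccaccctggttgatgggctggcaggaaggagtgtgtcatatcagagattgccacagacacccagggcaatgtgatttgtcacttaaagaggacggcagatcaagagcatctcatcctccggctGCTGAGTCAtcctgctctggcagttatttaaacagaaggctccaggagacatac
PLB1: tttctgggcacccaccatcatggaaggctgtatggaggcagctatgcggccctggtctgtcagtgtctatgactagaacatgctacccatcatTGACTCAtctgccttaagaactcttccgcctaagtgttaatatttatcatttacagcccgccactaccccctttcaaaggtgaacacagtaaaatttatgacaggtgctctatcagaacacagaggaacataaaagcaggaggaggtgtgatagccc
F2RL2: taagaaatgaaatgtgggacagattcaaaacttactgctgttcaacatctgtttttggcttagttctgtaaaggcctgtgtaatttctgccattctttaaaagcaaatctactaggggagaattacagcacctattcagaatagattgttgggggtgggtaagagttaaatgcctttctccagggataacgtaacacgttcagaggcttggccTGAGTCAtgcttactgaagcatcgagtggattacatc
PERP: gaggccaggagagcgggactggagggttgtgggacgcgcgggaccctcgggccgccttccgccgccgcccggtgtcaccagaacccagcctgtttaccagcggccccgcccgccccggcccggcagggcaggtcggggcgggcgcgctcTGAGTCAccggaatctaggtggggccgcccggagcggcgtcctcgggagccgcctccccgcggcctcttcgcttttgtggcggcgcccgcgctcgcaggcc
The match TGAGTCA begins 52 bases before the start in LUCAT1, 37 before in F2RL2 and 101 before in PERP, and TGACTCA begins 157 before in PLB1. In LUCAT1 the capitals also cover GCTGAGTCA, a match on the other strand to the core of the antioxidant response element, which overlaps the AP-1 match. C and G made up 46.8% of these bases in PLB1, 40.8% in F2RL2 and 77.2% in PERP.

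The share of promoters with an AP-1 match was highest for genes that rose strongly, a difference given here without a test. The letters TGANTCA were searched on both strands of 27305 RefSeq promoters, each from 250 bases before to 50 after the start, and found in 7.76% of them. Promoters were matched by symbol to 13212 of the genes tested (57.9%). Among genes at 1 CPM or more in vehicle, a match was present for 31 of 173 that rose by more than 2-fold (17.9%) and for 26 of the 149 of these outside the 3 stress lists (17.4%). It was present in 5.35% of 972 that rose by 2-fold or less, 4.22% of 7773 not called, 3.73% of 1609 that fell by 2-fold or less and 3.02% of 265 that fell by more. Strong rises with a match included LAMA3, HDAC9 and CLDN4 besides LUCAT1, PLB1 and F2RL2. Under 1 CPM in vehicle, the shares were 11.6% of 620 strong rises and 5.65% of 1646 genes not called. Base composition moved with the same split, with a median C and G content of 63.3% for strong rises from 1 CPM, 65.0% for genes not called and 66.7% for strong falls, and its part was not tested. The antioxidant core, TGACNNNGC on either strand, which can overlap TGANTCA, was in 13.6% of all promoters, 27.8% of 36 promoters of the NRF2 list, 16.8% of the strong rises from 1 CPM and 15.4% of genes not called at that level. These shares describe letters in a window of 300 bases and show no binding.

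The 12 largest falls under the same minimum level included matrix proteins, chemokines and anoctamins. MXRA5, a secreted matrix protein of unsettled function (chromosome X, 3226606 to 3264682 in hg19), was at 9.94, 11.5 and 12.7 CPM in vehicle and 1.65, 1.65 and 0.953 CPM with chaetocin. The fitted level fell to 0.125 of that in vehicle (adjusted p 3.49e-05), and every chaetocin library lay far under every vehicle library. CCL2, the chemokine that draws monocytes, was at 90.6, 75.7 and 104 CPM and then 15.3, 14.5 and 19.1 CPM, a fall of 2.46 ± 0.218 on the log2 scale (adjusted p 1.02e-05). CX3CL1, a membrane-anchored chemokine, was at 30.9, 31.2 and 39.5 CPM and then 8.3, 7.1 and 6.72 CPM, a fall of 2.20 ± 0.205. The fall of both chemokines was several times the spread between libraries. COL11A1, a chain of a minor fibrillar collagen, went from 44.3, 47.9 and 45 CPM to 11.3, 9.9 and 5.59 CPM. ITGB4, the integrin subunit of hemidesmosomes, went from 16, 17 and 14.3 CPM to 4.81, 4.11 and 3.41 CPM. SEMA3F, a secreted guidance cue, went from 24, 27 and 24.4 CPM to 7.55, 6.11 and 4.95 CPM. Chaetocin replicate 3 was the lowest library for these 3 genes, and their groups did not overlap. ANO9, of the anoctamin family of lipid scramblases and channels, had the smallest standard error of the 12 genes described here, at 24.5, 27.4 and 29.8 CPM and then 5.62, 5.12 and 4.43 CPM (a fall of 2.43 ± 0.121, adjusted p 3.15e-07). Its relative ANO8 fell from 10.3 ± 1.02 to 1.77 ± 0.277 CPM. The others were the acyl-CoA oxidase-like gene ACOXL (from 14.7 ± 1.46 to 3.17 ± 0.271 CPM), the small GTPase gene RASD2 (from 16.3 ± 1.51 to 3.84 ± 0.561 CPM), the EGF-domain gene MEGF6 (from 8.36 ± 1.24 to 2.15 ± 0.29 CPM) and the surface serine protease gene TMPRSS2 (from 14.5 ± 3.05 to 3.88 ± 0.861 CPM).

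**Figure D3:**
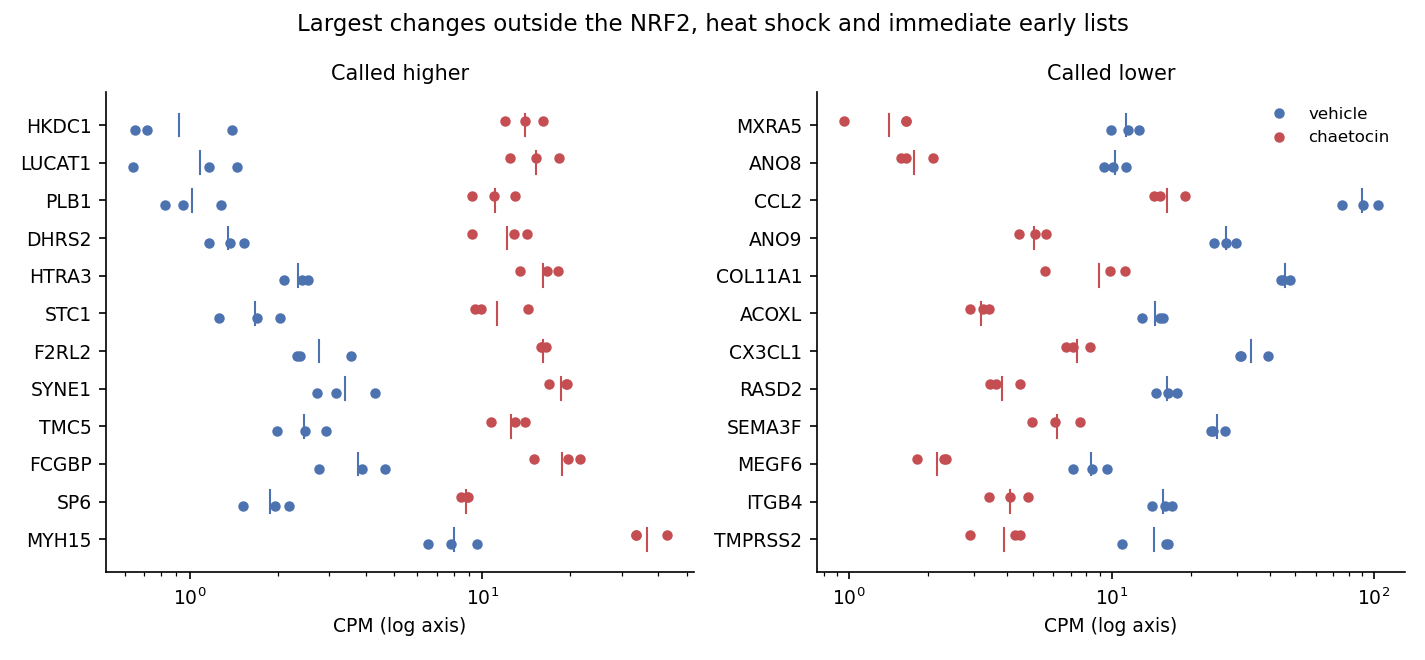
Level in CPM (log scale) of the 12 largest rises and 12 largest falls outside the NRF2, heat shock and immediate early lists, among genes with a mean of at least 5 CPM, with 1 point per library. The vehicle and chaetocin points of each gene do not overlap, which held for 48% of all genes tested.

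Genes at higher levels that fell included a protease, adhesion and junction proteins, a chaperone and cytoskeletal proteins. PLAU, the urokinase plasminogen activator, was at 503, 492 and 511 CPM in vehicle and 159, 154 and 157 CPM with chaetocin, a fall of 1.68 ± 0.0865 on the log2 scale (adjusted p 3.15e-07). ICAM1, an adhesion molecule for leukocytes, was at 188, 189.6 and 182 CPM and then 56.7, 61.4 and 57.2 CPM. CLDN1, a tight junction claudin, was at 74.8, 71 and 68.8 CPM and then 21.9, 22.5 and 21.4 CPM. Within each group these values varied by little, and the fitted chaetocin level was 0.312, 0.313 and 0.307 of that in vehicle. PLAU overlaps C10orf55, which fell from 122 ± 1.598 to 39.7 ± 2.56 CPM, and the 2 may share reads. PERP, a desmosome-linked membrane protein, had one of the largest falls in CPM, from 1113 ± 49.7 to 432 ± 21.4 CPM (a fall of 1.37 ± 0.105, adjusted p 3.56e-06). CD44, the hyaluronan receptor, fell from 1687 ± 4.18 to 669.8 ± 49.6 CPM, and CALR, the calcium-binding chaperone of the endoplasmic reticulum, from 1050 ± 50.8 to 491 ± 14.8 CPM. The overlapping keratin genes KRT8 and KRT18, filament proteins of simple epithelia, fell by 0.91 ± 0.101 and 0.85 ± 0.103. Smaller log2 falls in abundant cytoskeletal genes were 0.53 ± 0.0959 for the tubulin TUBB and 0.44 ± 0.0905 for the actin ACTG1. VIM, the vimentin gene, was called at a lower level, but not without chaetocin replicate 2, vehicle replicate 1 or vehicle replicate 3, with adjusted p from 0.000907 to 0.0733 over the settings tried. Rises of like size in CPM were in NRF2 list members such as NQO1, which reduces quinones (from 259.5 ± 26.9 to 602 ± 54.3 CPM), and SRXN1, which repairs oxidised peroxiredoxins (from 116 ± 14.8 to 425 ± 36.3 CPM). SRXN1 overlaps another gene of the table, with which it may share reads.

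Gene lists are described below by how many tested members were called, beside 12.6% higher and 11.9% lower over all genes and a median log2 fold change of 0.013. Since low-level genes leaned up, counts for members at 1 CPM or more in vehicle are also given for some lists. At that level 10.1% of 16069 genes rose and 16.2% fell. Falls made up 17.8% of all genes between 10 and 100 CPM and 20.4% from 100 CPM. A list with a share of falls near these values is near the background.

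Matrix and adhesion genes fell more often than they rose. Of 48 collagens and collagen enzymes, 7 rose and 19 fell (median -0.41), and of the 35 at 1 CPM or more 2 rose and 19 fell. Besides COL11A1, COL26A1 fell by 1.64 ± 0.161, the collagen cross-linking oxidase LOXL4 by 1.49 ± 0.13 and the prolyl hydroxylase P4HA1 by 0.88 ± 0.0771. Of 54 basement membrane proteins and matrix glycoproteins, 10 rose and 19 fell (median -0.23). TGFBI, a matrix protein induced by TGF-beta, fell from 249 ± 13.7 to 126 ± 2.87 CPM and the fibulin EFEMP1 by 1.25 ± 0.11, whereas the laminin chains LAMA2 and LAMA3 rose, LAMA3 from 3.29 ± 0.0309 to 11.9 ± 1.14 CPM. SPARC, a collagen-binding matrix protein, fell from 116 ± 2.06 to 45.3 ± 1.51 CPM. Of 26 integrins, 3 rose and 11 fell (median -0.29). ITGA3, a laminin-binding subunit, fell from 478 ± 55 to 235 ± 11.4 CPM and ITGB8 by 1.96 ± 0.196, while ITGB6, whose dimer with ITGAV binds latent TGF-beta, rose by 2.64 ± 0.359. The integrin median was 0.555 in the 5 members that overlap no other gene, the opposite sign. Of 53 matrix proteases and inhibitors, 12 rose and 14 fell (median 0.016), but among the 33 at 1 CPM or more 4 rose and 14 fell. With PLAU fell MMP2, a gelatinase (from 75.6 ± 3.16 to 34.5 ± 1.92 CPM), and MMP14, the membrane protease that activates it (from 22.3 ± 1.12 to 12.5 ± 0.227 CPM).

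Cell junction and cytoskeleton genes also had more falls than rises. Of 28 desmosome and gap junction genes, 3 rose and 9 fell (median -0.17). In the 12 members that overlap no other gene the median was 0.125, the opposite sign. Plakoglobin (JUP) fell from 163 ± 15.1 to 57.4 ± 10.4 CPM. On the log2 scale, the connexin GJA1 fell by 0.89 ± 0.192 and the junctional adhesion molecule F11R by 0.65 ± 0.0925. Of 76 actin and focal adhesion genes, 5 rose and 19 fell (median -0.15), among them the focal adhesion scaffold PXN (from 826 ± 37.7 to 501 ± 15.5 CPM). Of 21 entries for tubulins and the stathmins STMN1 and STMN3, 0 rose and 6 fell, STMN3 among them (median -0.12). TUBB3 is in this list more than once, as overlapping entries. Of 23 tetraspanins, 3 rose and 7 fell (median -0.11), with TSPAN15, a partner of the protease ADAM10, falling from 234 ± 5.32 to 91.8 ± 7.88 CPM.

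Protocadherins, surface adhesion proteins best known from neurons, had many falls, of which most came from overlapping genes. Of 69 protocadherins and cadherins in the list 49 fell and 2 rose (median -0.70). The groups counted below do not match that list member for member, and their numbers add up to more. Most lie in 3 clusters on chromosome 5 (hg19). All 16 alpha genes (140165876 to 140391936) fell, with a median of -1.32, and all 21 gamma genes (140710252 to 140892546) fell, with a median of -0.69. Each gene of these clusters overlaps others in the table because variable first exons are spliced to shared last exons, so the 16 and 21 values are not separate measurements. The beta genes (140430979 to 140627799) have their own exons. Of 15 tested there, 14 overlapping no other gene, 7 fell and 0 rose, and the median was -1.11. Of 8 other protocadherins 4 fell and 1 rose, and of 12 cadherins 3 fell and 1 rose. The beta sum was 25.1 CPM in vehicle and 13.9 CPM with chaetocin.

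**Figure D4:**
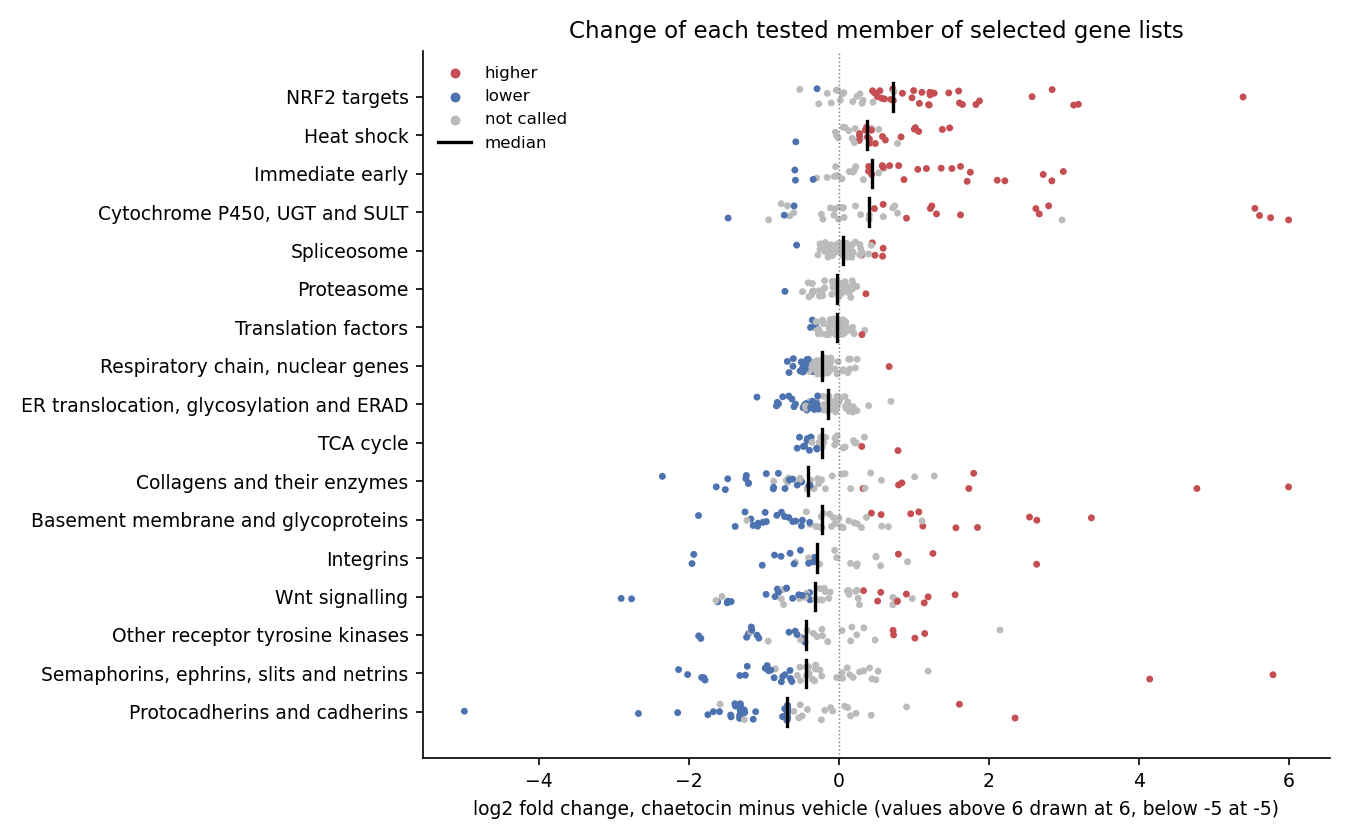
Log2 fold change of chaetocin over vehicle (x axis, SE not drawn) for each tested member of 17 gene lists (y axis, 1 point per gene, coloured by call), with values beyond -5 or 6 drawn at those limits. Most points of the protocadherin, collagen and semaphorin rows lie left of 0, and those of the proteasome and translation factor rows lie close to 0.

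Guidance cues, growth factor receptors and morphogen pathways also had more falls than rises. Of 49 semaphorins, ephrins, slits and netrins, 2 rose and 19 fell (median -0.44). SEMA4B fell from 512 ± 38.5 to 258 ± 9.68 CPM and the netrin NTN1 by 1.80 ± 0.223. Of 34 receptor tyrosine kinases outside the EGF family, 4 rose and 13 fell (median -0.44). RET, the receptor of the GDNF ligands, fell from 11.8 ± 1.63 to 3.28 ± 0.576 CPM. The fibroblast growth factor receptors split: FGFR1 rose from 40.1 ± 1.34 to 80.9 ± 3.94 CPM and FGFR4, named after its values were seen, from 9.61 ± 0.0882 to 15.8 ± 1.70 CPM, while FGFR2 fell by 1.21 ± 0.153 and FGFR3 by 1.17 ± 0.153. The ligand gene FGF11 fell by 1.59 ± 0.116.

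Among 53 Wnt pathway genes, 8 rose and 18 fell (median -0.32), and ligands moved in both directions. WNT10A was at 5.22, 4.56 and 4.76 CPM in vehicle and 0.712, 0.64 and 0.779 CPM with chaetocin, a fall of 2.77 ± 0.156 (adjusted p 5.7e-07) with all chaetocin libraries under 1 CPM. WNT9A rose from 25.2 ± 0.54 to 73.7 ± 11.4 CPM and WNT3 by 1.19 ± 0.126. DKK1, a secreted inhibitor of the Wnt co-receptor, was at 399, 354 and 363 CPM and then 121, 119 and 124 CPM. The fitted DKK1 level fell to 0.326 of that in vehicle, and every chaetocin library lay far under every vehicle library. Of 15 hedgehog genes, 1 rose and 5 fell (median -0.42): the ligand DHH by 3.35 ± 0.257, the transcription factor and pathway target GLI1 from 2.36 ± 0.349 to 0.371 ± 0.0179 CPM, and the ligand exporter DISP2 by 0.84 ± 0.139, among others. DHH overlaps RP11-386G11.8 in the table. Of 40 Notch genes, 3 rose and 8 fell (median -0.082), a share of falls near the background. Among the falls was the receptor NOTCH3, from 3.13 ± 0.664 to 0.684 ± 0.0219 CPM. In the 18 Notch genes that overlap no other gene the median was 0.0839, the opposite sign. These counts do not show that Notch signalling was lowered. Of 56 TGF-beta and BMP genes, 3 rose and 15 fell (median -0.16). Those that fell included LTBP2, a latent TGF-beta binding family protein (from 319 ± 65.5 to 106 ± 6.76 CPM), the ligand TGFB3 (by 0.93 ± 0.118) and the inhibitory SMAD6 (by 1.42 ± 0.242), and the stress cytokine GDF15 rose by 0.77 ± 0.127. Of 51 STAT and cytokine receptor genes, 6 rose and 12 fell (median -0.10). IL13RA1, a subunit of the IL-4 and IL-13 receptor, fell from 222 ± 10.4 to 104 ± 14.4 CPM, while PIM1, a kinase gene that STAT factors induce, rose from 35.8 ± 0.773 to 74 ± 1.17 CPM.

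Genes of the endoplasmic reticulum, of transport to the Golgi and of lysosomes had more falls than rises. Rises were few outside the lysosomal list, where their share was near the 12.6% over all genes. Of 68 genes for translocation, glycosylation and quality control in the endoplasmic reticulum, 0 rose and 23 fell (median -0.14), with 2 higher at an unadjusted p under 0.05 in edgeR and 1 called higher by DESeq2. Besides CALR, the disulfide isomerase PDIA4 fell from 425 ± 4.69 to 238 ± 5.81 CPM. Of 66 genes of transport from there to the Golgi, 2 rose and 16 fell (median -0.12), the cargo receptor TMED10 by 0.93 ± 0.144. Of 65 lysosomal enzymes and proton pump subunits, 9 rose and 20 fell (median -0.12). There GLA, the alpha-galactosidase, rose from 71.6 ± 2.48 to 205 ± 27.2 CPM and the pump subunit ATP6V0A4 from 0.189 ± 0.0975 to 2.52 ± 0.237 CPM, while the acid lipase LIPA fell from 181 ± 12.4 to 75.6 ± 7.61 CPM and the beta-mannosidase MANBA by 1.01 ± 0.103. Members of one lysosomal list thus changed in opposite directions by comparable amounts.

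Lipid and mitochondrial lists differed in their share of falls. Of 39 peroxisome genes, 3 rose and 14 fell (median -0.25), and of 50 sphingolipid and phospholipid synthesis genes 4 rose and 18 fell (median -0.16). AGPAT9, an acyltransferase of glycerolipid synthesis, rose from 38.5 ± 5.09 to 94.4 ± 9.25 CPM, and the endothelial lipase LIPG fell from 29.8 ± 2.26 to 10.1 ± 0.183 CPM. Of 31 TCA cycle genes, 2 rose and 11 fell (median -0.23). Of 89 nuclear genes for the respiratory chain and its assembly, 1 rose and 16 fell (median -0.22), the cytochrome CYC1 by 0.61 ± 0.112 and the ATP synthase subunit ATP5A1 by 0.61 ± 0.123. At 18.0% the share of falls in the respiratory chain was near the 16.2% over genes at 1 CPM or more. The mitochondrial ribosome had 1 higher and 9 lower of 78 (median -0.059), a share of falls of 11.5% and so no more than over all genes. In glucose use, 3 of 38 genes rose and 6 fell (median -0.022), with the glucose transporter SLC2A1 rising from 40.1 ± 2.52 to 83.8 ± 3.44 CPM. The share of falls there, 15.8%, was near the background.

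Enzymes that modify foreign compounds were one of the groups outside the 3 stress lists with more rises than falls. Of 41 cytochrome P450, UGT and SULT genes, 14 rose and 3 fell (median 0.40). Most rises were from low levels, and among the 18 at 1 CPM or more 4 rose and 3 fell. A pair of cytochromes that the aryl hydrocarbon receptor is known to induce moved apart: CYP1A1 rose by 1.24 ± 0.198 and CYP1B1 fell from 475 ± 8.21 to 170.2 ± 39.1 CPM. SULT1A1, a phenol sulfotransferase, rose by 1.22 ± 0.205. Of 27 aldehyde and alcohol dehydrogenases, 7 rose, DHRS2 among them, and 5 fell (median 0.17), including ALDH5A1, of GABA breakdown (by 1.64 ± 0.141), and ALDH1A3, of retinoic acid synthesis (by 0.99 ± 0.12). For comparison, the NRF2 list had 31 higher and 1 lower of 48 (median 0.72), the heat shock list 18 and 1 of 33 (median 0.37) and the immediate early list 20 and 3 of 39 (median 0.44).

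Transporters and channels were mixed. Of 52 potassium channel genes 7 rose, KCNF1 among them, and 13 fell (median 0.044). Among those at 1 CPM or more, 3 of 27 rose and 11 fell. Of 32 ABC transporters, 4 rose and 5 fell (median -0.17). ABCB6, a porphyrin transporter, rose from 29.4 ± 0.645 to 71.4 ± 5.49 CPM, and ABCA3, a phospholipid transporter, fell by 1.26 ± 0.146. Of 32 carriers of zinc, copper and iron, 1 rose and 8 fell (median -0.033), the zinc exporter SLC30A1 from 55.6 ± 1.52 to 18 ± 4.55 CPM.

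Among chromatin regulators, of 18 histone deacetylases and sirtuins 3 rose and 6 fell (median -0.16). HDAC9 rose from 13.8 ± 1.64 to 31.2 ± 1.64 CPM, while HDAC1 fell from 305 ± 1.18 to 227 ± 9.36 CPM and HDAC8 by 0.86 ± 0.157. Of 23 lysine demethylases, 4 rose and 1 fell (median 0.025). KDM6B, which removes the Polycomb mark on histone H3 lysine 27, rose by 1.34 ± 0.234. Of 42 chromatin remodellers, 0 rose and 5 fell (median -0.17), the muscle and neural subunit SMARCD3 by 1.36 ± 0.116. In the circadian clock, 6 of 22 genes rose and 3 fell (median -0.04). The clock activator ARNTL rose by 1.44 ± 0.178. Repressors of the clock moved in both directions. NR1D1 rose by 0.68 ± 0.111 and NR1D2 by 0.89 ± 0.132, while BHLHE41 fell by 0.75 ± 0.0727 and PER2 by 0.39 ± 0.134. Of 40 nuclear receptors 9 rose and 10 fell (median -0.059), NR2F1 by 1.18 ± 0.105.

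Core machinery of RNA and protein handling had shares of calls under the background. Of 48 proteasome genes 1 rose and 2 fell, of 57 translation factors 1 rose and 3 fell, of 48 RNA decay genes 2 rose and 1 fell, and of 64 spliceosome genes 5 rose and 1 fell. The medians were -0.029, -0.032, 0.028 and 0.047. Olfactory receptors, which are silent outside the nose in most tissues, had 4 tested members of 401 in the table. Of these 0 were called by edgeR, with 1 at an unadjusted p under 0.05, and 1 by DESeq2.

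Of the known targets of the compounds, thioredoxin reductase alone was called, and none of the driver genes of the line was. TXNRD1, the cytosolic thioredoxin reductase, rose from 739.7 ± 42.8 to 1784 ± 123 CPM (log2 fold change 1.27 ± 0.139). SUV39H1 was at 46.9 ± 0.529 CPM in vehicle and 39.1 ± 0.467 CPM with chaetocin, and edgeR's adjusted p was 0.0792. SUV39H2, the related methyltransferase EHMT2 and the kinases AURKA and AURKB were not called, nor was TXNRD2, the mitochondrial reductase. Of these 6 genes, 2 were at an unadjusted p under 0.05 in edgeR, and DESeq2 called 0. Of 9 genes often altered in pancreatic cancer, edgeR called 0, with 3 at an unadjusted p under 0.05, and DESeq2 called 1. MYC, a transcription factor of growth, was at 88.8 ± 4.67 CPM and then 103 ± 2.19 CPM. These are RNA levels, and enzyme activity was not measured.

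The label of the cells was set against marker genes. The 14 pancreatic duct markers summed to 4248 to 4861 CPM in vehicle and 2506 to 2665 CPM with chaetocin. Of 13 tested, 3 rose and 7 fell, with KRT8 and KRT18 carrying much of the fall in the sum, and CLDN4, a tight junction claudin, rising from 49.3 ± 2.58 to 111 ± 12.8 CPM. CFTR was at 0 in every chaetocin library. Acinar markers summed to 0.197 to 0.292 CPM and 0.274 to 0.469 CPM, with 0 of 13 passing the filter and PRSS1, PNLIP and PTF1A at 0 in both groups. Endocrine markers summed to 7.59 to 8.10 CPM and 3.81 to 4.54 CPM, with INS, GCG and SST at 0 in both groups. NEUROD1 and PPY were at 0 in vehicle alone, as were the acinar markers AMY2A, CPA1 and CPB1. The transcription factor PDX1 (from 4.86 ± 0.0933 to 2.32 ± 0.235 CPM) and the granule protein CHGB (from 2.27 ± 0.14 to 0.992 ± 0.166 CPM) fell, and NKX6-1 was at 0.626 ± 0.223 CPM and then 0.548 ± 0.148 CPM. Duct markers were thus present, and the hormone genes INS, GCG and SST and the enzyme genes PRSS1 and PNLIP were at 0.

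Markers of cell types that a culture of this line should lack were followed because some of the rises were in such genes. The 15 immune markers summed to 157 to 183 CPM in vehicle and 168.8 to 235.8 CPM with chaetocin, with CD3D, MS4A1 and FCGR3A at 0 in both groups and 2 of 9 tested members higher, PTPRC and CSF1R. Most of the immune sum was CD68, a lysosomal protein not confined to immune cells, at 165 ± 13.1 CPM and then 188 ± 36.04 CPM. The 11 endothelial markers summed to 17.8 to 21.1 CPM and 22.03 to 28.73 CPM. CDH5, EMCN, TEK and VWF were at 0 in vehicle, none was at 0 in all chaetocin libraries, and 3 of 6 tested members rose. ERG, an ETS factor of endothelium, rose from 1.02 ± 0.231 to 5.87 ± 0.487 CPM. The 12 fibroblast markers summed to 75.2 to 90.5 CPM and 62.2 to 70.8 CPM, with DCN at 0 in both. Most of the endothelial sum was EGFL7, which was not called, at 16.4 ± 1.43 CPM and then 14.4 ± 2.74 CPM, so neither sum describes the other members of its list.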

How the data were processed

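The authors deposited 1 table of 57773 genes. Its columns are, per the file headers, counts and RPKM for each library, beside Ensembl identifiers and positions. The counts were used as deposited. The deposited RPKM values were used in no test. Per the submitters' processing notes, the tools were CASAVA 1.9, HTSeq and TopHat 12.0.6, with the build hg19. No strand setting for counting is stated in those notes, and overlapping genes can share reads.

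Counts of all 12 libraries were fitted with 4 group means in edgeR 4.0.16 (R 4.3.3; TMM, default filter by group, robust quasi-likelihood test, Benjamini-Hochberg over 22831 genes, threshold 0.05), after the scripts were tested on simulated data. The common biological coefficient of variation was 0.155, and the median SE of a log2 fold change 0.179. Fits that left out a library, DESeq2 1.42.0, limma-voom (limma 3.58.1), other filters and a replicate block were alternatives. Replicates were numbered by the labels. The combination labels spell the second compound with 1 other digit, taken here to mean MLN8237.

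Genes named were, outside the NRF2, heat shock and immediate early lists, the 12 largest log2 changes each way with a mean of at least 5 CPM and no overlap between groups, the 10 largest CPM differences each way, the 3 smallest p each way in each range of vehicle level, up to 4 smallest p in each list, and the driver and target genes. Genes at 0 in vehicle and marker genes at 0 were named after their values were seen. The members and lists were chosen with earlier results of these data known. Promoters are RefSeq's, in GRCh38.p14, and were matched to genes by symbol. No promoter was used for genes without an entry, which include those on chromosome 8. Floors cover counting error only.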

Additional observations from a re-analysis of the deposited data

How the results depend on the processing

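Calls were counted again under each alternative. DESeq2 called 6492 genes, limma-voom 5579, DESeq2's size factors in edgeR 5527, no filter 5175, a stricter filter 4843 and a fit of only the 6 libraries compared 7657, against 5591. Leaving out 1 library at a time gave 3704 to 4705 calls, 1885 to 2472 higher and 1772 to 2233 lower. A minimum log2 change of 1 left 1989 calls, 1463 higher and 526 lower, and the 6941 genes that overlap no other gene, chosen after seeing the data, held 1876 calls, 1049 higher and 827 lower. The numbers of the replicates did not pair the libraries (correlations of -0.072, 0.091 and 0.137 between same-numbered libraries), and a fit with the replicate block called 6798 genes, 3405 higher and 3393 lower.

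The percentage of called genes that were higher was 91.3 under 1 CPM in vehicle. That figure includes genes under 0.1 CPM, whose direction the filter largely fixes, and the stricter filter (1 CPM in 3 libraries) fixes it for most genes under 1 CPM, so these values are no test of the direction. It was 93.0 with no filter, 88.0 in the fit of only 6 libraries, 98.6 with the stricter filter, 84.5 with levels from all 12 libraries, 89.1 for both compounds against MLN8237 and 92.0 to 94.0 leaving out 1 library. From 100 CPM, where it was 17.9, it was 22.7 in the fit of only 6 libraries, 23.8 with the stricter filter, 21.5 in genes without overlap, 27.4 with levels from all 12 libraries and 14.7 to 16.6 leaving out 1 library. Falls were thus the majority of calls from 100 CPM under each of these. Of 79 list medians followed, 29 changed sign under at least 1 alternative, and 5 of these were at least 0.15 in size. In the subset without overlap, further medians of at least 0.15 in size besides that of the integrins turned positive. They were those of ABC transporters (0.18), sphingolipid and phospholipid synthesis (0.048), desmosome and gap junction genes (0.12) and duct markers (1.17). For duct markers only KRT19, which fell, and CLDN4 and SPP1, which rose, remained there, and 1.17 is the value of CLDN4. At 3 libraries a group, changes much smaller than the SE of a gene could not be called, which weighs most on low-level genes.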
